A study of Mus musculus with 4 samples.

Results

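The genes described are those of the ligand-gated neurotransmitter and ATP receptors, measured in S-180 cells, a mouse sarcoma line grown in culture. The cells, kept in serum-containing RPMI medium, received 20 µM fluoxetine for 12 h (2 arrays, fluoxetine 1 and fluoxetine 2), or were cultured for the same time with no drug (2 arrays, control 1 and control 2), and no vehicle is named. Fluoxetine is an antidepressant that blocks the serotonin transporter. All 4 samples are of the one line and carry no other treatment, and each is RNA of a whole culture. The labels call the arrays of a group biological replicates, and p-values measure only the spread between these arrays, since nothing states that the cultures were separate. Members were the probes with a RefSeq mRNA accession of mouse genes whose symbols start with Gabr, Gria, Grik, Grin, Grid, Glra, Glrb, Chrn or P2rx, or are Htr3a or Htr3b. They numbered 69 genes with 109 probes, of 20090 genes with such a probe on the array. Of the 69, 67 encode receptor subunits (106 probes). The other 2, Grina and Grid2ip, share only the first letters of the symbol and are given apart.

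Ligand-gated receptors are membrane channels that open when a transmitter binds. The receptors for GABA, glycine, acetylcholine (nicotinic) and serotonin (type 3) form the Cys-loop superfamily, whose members assemble as rings of subunits. Ionotropic glutamate receptors comprise the AMPA, kainate, NMDA and delta classes, and P2X receptors are channels gated by extracellular ATP. Most of these subunits are known from neurons or muscle, while P2X receptors are also found in many non-neuronal cells, and a subunit generally needs matching partners to make a working channel.

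Few of these genes were measurable in S-180 cells. Of the 67 subunit genes, 16 (23.9%) had a probe marked well above background on both fluoxetine arrays or both control arrays, against 62.3% of the 20090 genes with a RefSeq mRNA probe. Another 5 had such a mark on single arrays only, and 46 on no array. Both groups had 15 subunit genes marked on both of their arrays. The measurable genes were Gabra2, Gabrb2, Gabrd and Gabrr2 of the GABA-A family, Glra1 of the glycine receptors, Chrnb1, Chrnb2, Chrnb4 and Chrne of the nicotinic receptors, Grik5 of the kainate receptors, Grin2d and Grin3b of the NMDA receptors, and P2rx1, P2rx2, P2rx4 and P2rx5. Gabra2 entered through the control arrays alone, and P2rx1 through the fluoxetine arrays alone, so that their entry depended on the group where the signal was high.

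**Figure D1:**
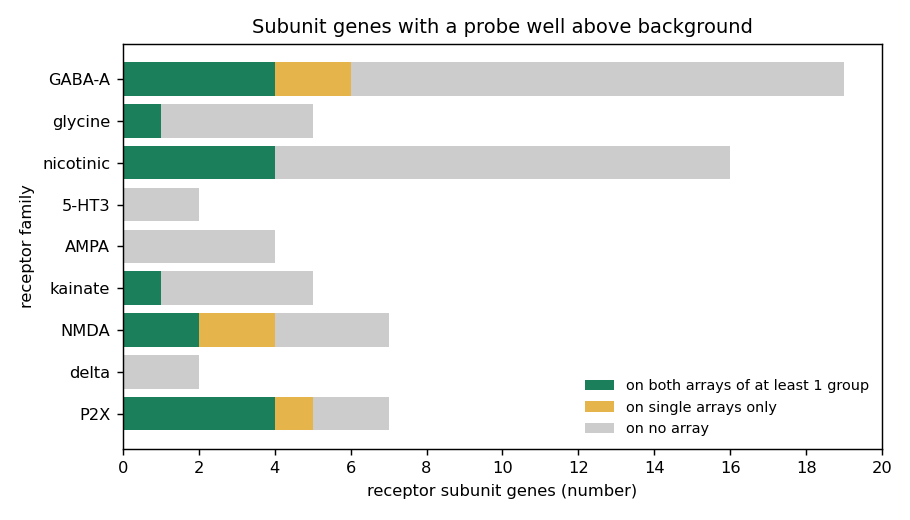
Number of receptor subunit genes (horizontal axis) in each family (vertical axis) by the best mark of any of their probes: well above background on both arrays of fluoxetine or of control, on single arrays only, or on no array. P2X has 4 of 7 genes in the first class and nicotinic receptors 4 of 16, while the AMPA, delta and serotonin type 3 genes have 0.

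The missing members included partners that the measurable subunits are known to assemble with. All 9 nicotinic alpha genes on the array (Chrna1 to Chrna7, Chrna9 and Chrna10), whose products carry the main part of the acetylcholine site, had no marked probe. The same held for Chrnb3 and for the muscle subunit genes Chrnd and Chrng. Of the GABA-A genes, 13 were unmarked, among them Gabra3, Gabra4, Gabra5, Gabra6, Gabrb1, Gabre, Gabrg1, Gabrp, Gabrq and Gabrr3. Grin1, the obligatory NMDA subunit, had 0 of 2 probes marked, and Grin2a and Grin3a had none. Glrb, the glycine receptor beta subunit, had 0 of 2, and Glra2, Glra3 and Glra4 had none. The AMPA genes Gria1 to Gria4 and the delta gene Grid1 were unmarked throughout. Grik1, Grik2, Grik3 and Grik4 were unmarked, although Grik5, a subunit known to need a partner of the Grik1 to Grik3 group, was measurable. Htr3a and Htr3b, the ionotropic serotonin receptor genes, had no marked probe, nor had P2rx6 and P2rx7, the last a receptor of immune cells. Member probes with no mark had signals with a median of 4.44 and 4.58 intensity units on the fluoxetine arrays, against 6.26 and 5.10 on the control arrays. The lowest signals that carried the mark were 17.7 and 15.8 on the fluoxetine arrays, and 22.3 and 20.0 on the control arrays. A probe without the mark gives only an upper bound on its transcript. With 2 arrays a group, precision is limited throughout.

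The 5 genes marked on single arrays had low signals. Gabrg3 was marked on control 2 only (29.5 units) and Grin2b likewise (36.0). Grin2c was marked on control 1 only (44 units). P2rx3 was marked on fluoxetine 2 only (23.3), though control 1 read 23.9 without the mark. The 2 probes of Gabrr1 were each marked on a single array, of different groups: one on control 1 (47.8) and the other on fluoxetine 2 (27.0). None of the 5 was tested.

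The comparison asked which of these transcripts differed in amount after fluoxetine. In RNA of whole cultures, fewer cells with a transcript and less of it per cell cannot be told apart. Each value below is the log2 signal relative to the 75th percentile of its array, and each change is fluoxetine minus control with its standard error from limma (n = 2 arrays per group, adjusted p over 13539 genes). Among 16 tested subunit genes, 2 rose (Chrnb1 and Chrnb2), 4 fell (Gabra2, Grin2d, Grin3b and Glra1) and 10 did not pass the adjusted p threshold of 0.05. Gabra2 is in these counts although it entered the test through the control arrays alone. Over all tested genes 27% were called, 16.8% higher and 10.2% lower, and 6 calls among 16 genes is 37.5%. The median change of the 16 was -0.01, beside 0.06 over all tested genes. In 11 of the 16 genes (68.8%) the fluoxetine and control values were separate, against 72.5% of all tested genes. Fluoxetine was above control in 5 of them and below in 6, against 41.6% and 30.9% of all tested genes. Without fluoxetine 1, limma called 0 of all genes and so 0 of the 16, of which 9 had an unadjusted p under 0.05. Without fluoxetine 2 it likewise called 0, with 7 of the 16 at an unadjusted p under 0.05. The count was 4 without control 1 and 6 without control 2.

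**Figure D2:**
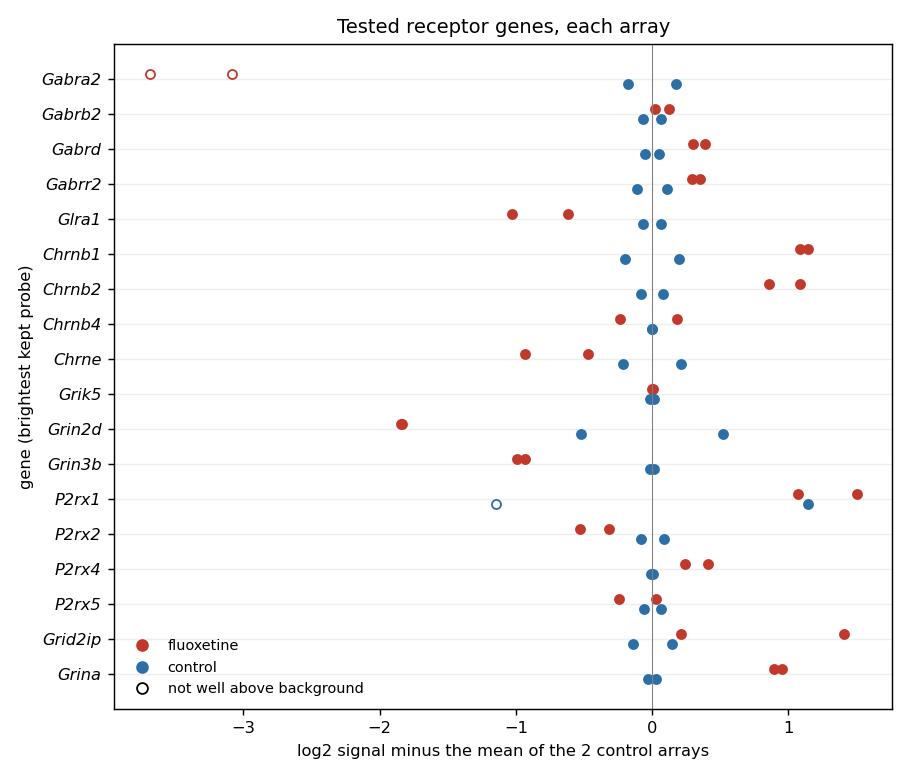
Log2 signal of each array minus the mean of the 2 control arrays of that gene (horizontal axis), for the 16 tested subunit genes and for Grid2ip and Grina (vertical axis), with red points for fluoxetine and blue for control, open where the probe was not well above background. Both Gabra2 fluoxetine points are open and lie left of -3, the Grin2d control points lie far apart, and the P2rx1 point of control 1 lies apart from the other 3.

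Among GABA-A genes, Gabra2, which encodes an alpha subunit of synaptic GABA-A receptors, fell. Its signal was 14.7 and 11.3 units on the fluoxetine arrays, neither marked, against 176 and 128 on the control arrays, both marked. Since the fluoxetine level is only bounded, Gabra2 was at least 8.02-fold lower with fluoxetine. The floor of this bound was the lowest marked signal, 17.7 and 15.8 units on the fluoxetine arrays. Unmarked member probes there reached 20.9 and 20.2 units, so the floor is no sharp limit. The bound ran from 7.0-fold without fluoxetine 2 to 9.20-fold without fluoxetine 1, and the call was lost without either of these arrays (adjusted p = 0.0535 and 0.0536). The fitted change, which is no bound, was -3.38 ± 0.26 (adjusted p = 0.0109), and -1.26 with normexp background correction (adjusted p = 0.000794). The measured signal came from 1 of the 4 Gabra2 probes, all 4 of which carry the same transcript accession, and the other 3 were unmarked on all arrays, at 4.41 to 6.52 units. Its neighbours of the same family in the annotation, Gabrg1 and Gabra4, were unmarked. Cox7b2, which lies between Gabra2 and Gabra4 in the annotation, fell by 0.57 (adjusted p = 0.0445). Gnpda2, beyond Gabrg1, was at -0.08 (adjusted p = 0.619).

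The other 3 measurable GABA-A genes did not pass. Gabrd, a subunit of extrasynaptic receptors, read -0.87 and -0.78 with fluoxetine, against -1.11 and -1.22 in control, a change of 0.34 ± 0.09 (adjusted p = 0.0562) with no overlap. It passed with quantile normalization (adjusted p = 0.0434) and where only probes marked on all 4 arrays were tested (adjusted p = 0.0418). Gabrr2, a rho subunit of the kind that can form receptors on its own, read 2.26 and 2.32 with fluoxetine, against 1.86 and 2.07 in control (0.32 ± 0.11, adjusted p = 0.093), again with no overlap. It passed when the variance was allowed to follow the signal level (adjusted p = 0.0424). For Gabrb2, a beta subunit, the groups overlapped and the change was 0.07 ± 0.09 (adjusted p = 0.578), from 1 marked probe of 3.

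Glra1, the alpha subunit of the adult inhibitory glycine receptor, fell to -3.94 and -3.53 with fluoxetine, against -2.84 and -2.98 in control. Both fluoxetine arrays lay below both control arrays, and the change was -0.82 ± 0.17 (adjusted p = 0.0361), a 1.77-fold lower level. This call was lost when any 1 of the 4 arrays was left out (adjusted p from 0.0639 to 0.108), and the change shrank to -0.16 with normexp background correction (adjusted p = 0.297). The signals, 23.2 and 36.3 units with fluoxetine against 62.7 and 52.8 in control, were near the lowest marked level, and 1 of the 2 Glra1 probes was unmarked on every array.

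Nicotinic subunits gave both of the rises. Chrnb1, the beta subunit of the muscle receptor, read -0.40 and -0.46 with fluoxetine, against -1.74 and -1.34 in control. All fluoxetine values lay above all control values, and the change was 1.12 ± 0.16 (adjusted p = 0.0204), 2.17-fold. Chrnb2, the most widespread beta subunit of neuronal receptors, read -1.14 and -0.91 with fluoxetine, against -2.08 and -1.91 in control, with a change of 0.97 ± 0.12 (adjusted p = 0.017), 1.96-fold. Without either fluoxetine array both calls were lost, as all calls were, and the Chrnb2 call was also lost without control 1. Over the fits that left out an array, the change ran from 0.92 to 1.32 for Chrnb1 and from 0.86 to 1.08 for Chrnb2. Each of these genes has 1 probe. With normexp background correction the changes were 0.75 for Chrnb1 (adjusted p = 0.0049) and 0.66 for Chrnb2 (adjusted p = 0.00554). Chrne, the epsilon subunit of the adult muscle receptor, read -2.87 and -2.40 with fluoxetine, against -1.72 and -2.14 in control. Its groups did not overlap and the change of -0.70 ± 0.23 did not pass (adjusted p = 0.093). For Chrnb4, a beta subunit of autonomic ganglia, the control values lay between the fluoxetine values, and the change was -0.03 ± 0.16 (adjusted p = 0.906).

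Both measurable NMDA genes fell. Grin2d, a glutamate-binding subunit known mainly from the developing brain, read -1.49 and -1.50 with fluoxetine, against 0.86 and -0.18 in control. The groups did not overlap, but the control arrays lay over 1 log2 unit apart while the fluoxetine arrays were nearly equal, and the change of -1.84 ± 0.37 (adjusted p = 0.0359) was -1.32 without control 1 and -2.36 without control 2. Grin3b, a glycine-binding subunit known from motor neurons, read -1.67 and -1.73 with fluoxetine, against -0.75 and -0.72 in control. Here the spread within each group was small, and the change was -0.96 ± 0.08 (adjusted p = 0.0109), with -0.99 to -0.93 over the fits that left out an array. With normexp background correction the Grin3b change was -0.63 (adjusted p = 0.00565). Both genes have 1 probe. Among kainate genes, Grik5 changed by 0.00 ± 0.07 (adjusted p = 0.997), with values of 0.64 and 0.63 with fluoxetine, against 0.62 and 0.65 in control. The other Grik5 probe changed by 0.32 ± 0.18 in the fit over single probes (adjusted p = 0.235).

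**Figure D3:**
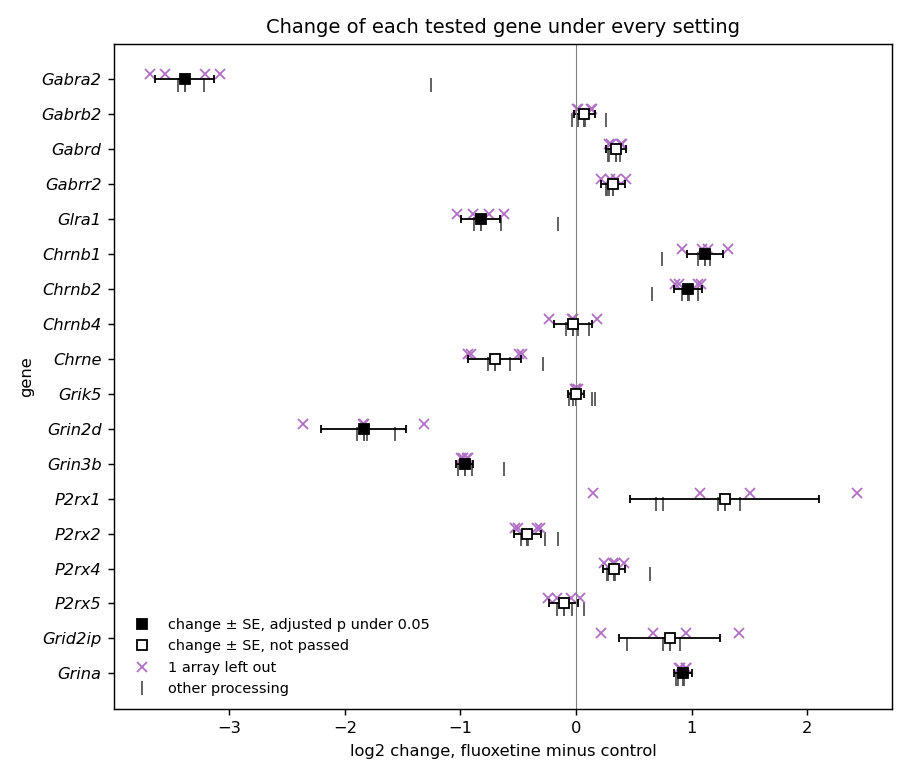
Log2 change, fluoxetine minus control (horizontal axis), of each tested gene (vertical axis) as squares with standard error, filled at an adjusted p under 0.05, with crosses for fits without 1 array and ticks for other processing settings. Grin3b and Grina stay within a narrow range when an array is left out, Gabra2 moves to -1.26 under normexp correction, and P2rx1 spans 0.14 to 2.43.

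P2X genes were the family with the largest share of measurable members, 4 of 7, and 0 passed in limma (2 at an unadjusted p under 0.05). P2rx4, a receptor known from lysosomes and the plasma membrane of many cells, read 3.71 and 3.88 with fluoxetine, against 3.47 and 3.45 in control. Both fluoxetine arrays were higher, and the change of 0.33 ± 0.09 did not pass (adjusted p = 0.0711). The second P2rx4 probe changed by 0.96 ± 0.09 (adjusted p = 0.0128 in the fit over single probes), so the 2 probes shared a direction and differed in size. The mean of both probes gave 0.64 (adjusted p = 0.0183), and the first probe passed when the variance was allowed to follow the signal level (adjusted p = 0.0283). P2rx2 read -2.56 and -2.78 with fluoxetine, against -2.17 and -2.33 in control, with a change of -0.42 ± 0.12 (adjusted p = 0.0703) and no overlap, and passed where only probes marked on all 4 arrays were tested (adjusted p = 0.0488). P2rx5 changed by -0.11 ± 0.13 (adjusted p = 0.556), with overlapping groups.

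P2rx1, a receptor known from smooth muscle and platelets, rested on a single array. It read -1.61 and -2.04 with fluoxetine, against -4.26 and -1.97 in control, and control 1 lacked the background mark. The control 2 value lay between the fluoxetine values. The change was 1.29 ± 0.82 (adjusted p = 0.291), and it was 0.14 without control 1 and 2.43 without control 2 (adjusted p = 0.0207). In the last fit the control is the single unmarked array, assumed to vary as the fluoxetine pair does. The second P2rx1 probe also lacked the mark on control 1 and changed by 0.22 ± 0.20 (adjusted p = 0.442 in the fit over single probes).

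Of the 16 tested genes, 8 have over 1 probe, 19 in all, of which 11 were kept by the filter. Probes of 1 gene can bind different parts of its transcripts, and their signals are not compared with each other here. The calls for Gabra2 and Glra1 rest on 1 measurable probe where others were dim, and the remaining 4 calls on the only probe of the gene.

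**Figure D4:**
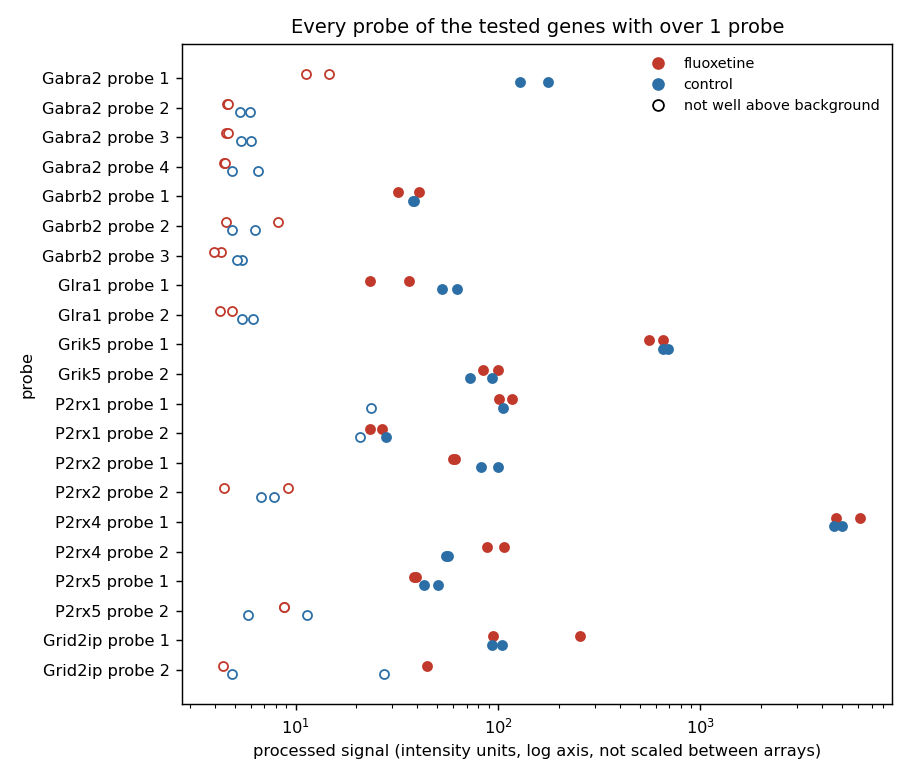
Processed signal in intensity units on a log axis (horizontal) of every probe of the tested genes with over 1 probe (vertical axis), red for fluoxetine and blue for control, open where not well above background. Probe 1 of Gabra2 is filled in control only, and Gabra2 probes 2 to 4 are open on every array.

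Grina encodes an ER and Golgi membrane protein of the Bax inhibitor family and is no receptor subunit. It rose to 4.84 and 4.78 with fluoxetine, against 3.86 and 3.92 in control (0.92 ± 0.08, adjusted p = 0.0118), 1.90-fold, with narrow spread in both groups. Grid2ip, a scaffold protein of excitatory synapses, read -1.92 and -0.72 with fluoxetine, against -2.27 and -1.99 in control. Its fluoxetine values were far apart and the change of 0.81 ± 0.44 did not pass (adjusted p = 0.228), being 0.21 without fluoxetine 2 and 1.41 without fluoxetine 1.

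The promoters of the called subunit genes are shown because these are the members whose level moved, and so that their start regions can be set side by side. RefSeq promoter windows of GRCm38.p6, from 250 bases before to 50 after the annotated start, were found for 5 of the 7 called members, and Glra1 and Grina had no entry. Capitals mark matches on either strand. The motifs were the GC box, spelled GGGCGG, the TATA box, spelled TATAAA, and the E-box, spelled CACGTG. The cyclic AMP response element, spelled TGACGTCA, was searched as well. The RE1 element, bound by the silencer REST, was searched by its left part, spelled TTCAGCACC, and by its right part, spelled GGACAGC. Matches may overlap, as 2 of the GC boxes of Chrnb1 do.
Gabra2, chr5:71095800-71096099, minus strand: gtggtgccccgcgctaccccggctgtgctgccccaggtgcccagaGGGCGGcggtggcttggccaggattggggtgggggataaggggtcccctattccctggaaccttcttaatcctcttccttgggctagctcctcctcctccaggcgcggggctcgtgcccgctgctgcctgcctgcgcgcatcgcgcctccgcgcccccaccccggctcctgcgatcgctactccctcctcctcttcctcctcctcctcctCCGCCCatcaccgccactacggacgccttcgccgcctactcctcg
Grin2d, chr7:45866632-45866931, minus strand: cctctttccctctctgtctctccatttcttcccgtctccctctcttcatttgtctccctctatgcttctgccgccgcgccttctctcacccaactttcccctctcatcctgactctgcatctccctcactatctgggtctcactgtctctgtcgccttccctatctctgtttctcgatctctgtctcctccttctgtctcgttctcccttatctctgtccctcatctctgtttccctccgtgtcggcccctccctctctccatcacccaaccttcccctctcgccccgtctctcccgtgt
Grin3b, chr10:79970474-79970773, plus strand: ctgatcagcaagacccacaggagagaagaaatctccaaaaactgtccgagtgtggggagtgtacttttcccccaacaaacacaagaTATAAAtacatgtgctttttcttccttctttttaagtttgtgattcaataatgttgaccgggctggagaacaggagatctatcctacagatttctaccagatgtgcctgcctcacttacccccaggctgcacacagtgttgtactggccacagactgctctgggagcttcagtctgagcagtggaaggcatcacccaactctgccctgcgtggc
Chrnb1, chr11:69795888-69796187, minus strand: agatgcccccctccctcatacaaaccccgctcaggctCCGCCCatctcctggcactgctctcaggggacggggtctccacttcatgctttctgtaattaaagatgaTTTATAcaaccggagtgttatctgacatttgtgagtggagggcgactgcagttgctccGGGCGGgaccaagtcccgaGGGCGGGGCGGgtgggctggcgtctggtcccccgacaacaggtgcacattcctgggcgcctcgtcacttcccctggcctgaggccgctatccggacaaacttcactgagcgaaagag
Chrnb2, chr3:89764583-89764882, minus strand: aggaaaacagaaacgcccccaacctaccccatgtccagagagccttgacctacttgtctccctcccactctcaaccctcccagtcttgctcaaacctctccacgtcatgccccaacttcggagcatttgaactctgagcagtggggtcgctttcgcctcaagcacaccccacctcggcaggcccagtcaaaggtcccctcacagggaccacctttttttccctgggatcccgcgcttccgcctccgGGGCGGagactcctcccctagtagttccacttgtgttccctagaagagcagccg
Chrnb1 held 4 GC boxes and 1 TATA box, Gabra2 held 2 GC boxes, Chrnb2 held 1 GC box and Grin3b held 1 TATA box, while Grin2d held 0 of the motifs. The TATA match of Chrnb1 lay at -144 from the annotated start, on the strand opposite to the one printed. That of Grin3b lay at -164. Over 32851 promoter windows of the same length, 35.7% held the GC box, 13.6% the TATA box, 7.15% the E-box, 1.79% the cyclic AMP response element, and 0.371% and 6.56% the left and right RE1 parts. None of the 5 windows held an E-box, a cyclic AMP response element or either RE1 part. The GC content was 70% for Gabra2, 60% for Chrnb1, 59% for Chrnb2, 56% for Grin2d and 48.3% for Grin3b, beside a median of 52.7% over all windows. A match describes letters only.

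Genes that lie near the called members gave mixed values, of which the called ones are given with some of the others. Adar, an RNA editing enzyme gene whose annotated span overlaps that of Chrnb2, rose by 0.56 (adjusted p = 0.0268). Tmem259, which overlaps Grin3b, was at -0.23 (adjusted p = 0.246). Wdr18, next to Grin3b, was at 0.29 (adjusted p = 0.0764), and Arid3a, beyond Wdr18, fell by 0.57 (adjusted p = 0.0237). G3bp1, beside Glra1, fell by 0.63 (adjusted p = 0.0167). Parp10, beside Grina, was at -0.06 (adjusted p = 0.591), and Plec, beyond Parp10, fell by 0.57 (adjusted p = 0.0229). Fgf11 and Zbtb4, beside Chrnb1, were at 0.11 and 0.20 and did not pass, and Tmem102, beyond Fgf11, rose by 0.95 (adjusted p = 0.0122). Grwd1, beside Grin2d, was at -0.04 (adjusted p = 0.75), and Kcnj14, a potassium channel gene beyond Grwd1, fell by 0.46 (adjusted p = 0.0296).

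Partner genes were read against all tested genes, of which 27% were called, 16.8% higher and 10.2% lower, with a median change of 0.06, and nothing particular to a list is drawn from its count. Of 25 genes of GABA and glycine signalling, 13 were tested, 5 rose, 0 fell and 8 did not pass, with a median change of 0.29. The GABA-synthesising enzyme genes Gad1 and Gad2 and the vesicle transporter gene Slc32a1 had no marked probe. Lhfpl4, which helps place GABA-A receptors at synapses, rose by 0.97 ± 0.10 (adjusted p = 0.0134), and Slc6a9, a glycine transporter gene, by 0.90 ± 0.08 (adjusted p = 0.0125). The kinesin adaptor gene Trak2 rose by 0.72 ± 0.15, and the GABA receptor-associated proteins Gabarapl1 (0.63 ± 0.09) and Gabarapl2 (0.41 ± 0.09), also members of the autophagy machinery, rose with them. Gabarap (0.31) and the inhibitory synapse scaffold gene Gphn (-0.08) did not pass.

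Of 47 glutamate partners, 20 were tested, 4 rose, 3 fell and 13 did not pass (median 0.08), beside 16.8% higher and 10.2% lower over all tested genes. Camk2b, a kinase subunit of excitatory synapses, was at least 3.94-fold lower and was not marked with fluoxetine (adjusted p of the fitted change = 0.00637). Slc17a7, a vesicular glutamate transporter gene, was not marked in control (adjusted p of the fitted change = 0.00742). Set against the lowest marked control signals, Slc17a7 was 1.29-fold higher with fluoxetine. That floor is no sharp limit, since unmarked receptor probes reached 26.5 and 24.1 units on the control arrays. Slc17a7 itself read 23.7 and 25.1 units with fluoxetine, so no lower limit on its change is given. Camk2b entered the test through the control arrays alone and Slc17a7 through the fluoxetine arrays alone, so their places in these counts depended on the group where each was high. The scaffold genes Homer3 (0.81 ± 0.15) rose and Homer1 (-0.56 ± 0.10) and Shank1 (-0.53 ± 0.12) fell, although 1 of the 3 Homer1 probes kept moved the other way. The amino acid transporter gene Slc1a4 (0.48 ± 0.07) and the glutamine synthetase gene Glul (0.37 ± 0.08) rose.

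Of 20 acetylcholine partners, 8 were tested, 2 rose, 2 fell and 4 did not pass (median 0.17), beside the same 16.8% and 10.2% over all tested genes. Rapsn, which clusters the muscle nicotinic receptor, read -0.89 and -0.86 with fluoxetine, against -2.04 and -1.88 in control, and rose by 1.08 ± 0.09 (adjusted p = 0.0118). Lynx1, a membrane-anchored modulator of nicotinic receptors, rose by 0.70 ± 0.08 (adjusted p = 0.0147). Dok7, an adaptor of the neuromuscular junction, fell by 0.56 ± 0.11 (adjusted p = 0.0369), with 1 of its 3 kept probes moving the other way. Chrm1, a muscarinic receptor gene, was not marked with fluoxetine (adjusted p of the fitted change = 0.0381). Set against the lowest marked fluoxetine signals, which are no sharp limit, Chrm1 was 2.18-fold lower. It entered the test through the control arrays alone. The chaperone genes Ric3 and Tmem35a, known to help nicotinic receptors assemble, had no marked probe.

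Among 24 purine partners, 10 were tested, 0 rose and 9 did not pass (median -0.14). The member that fell was the adenosine receptor gene Adora2a, not marked with fluoxetine (adjusted p of the fitted change = 0.0475). Set against the floor used for such bounds, which is no sharp limit, Adora2a was 1.61-fold lower. Adora2a, too, entered the test through the control arrays alone, and 10.2% of all tested genes fell. The channel gene Panx1 (-0.13), through which ATP can leave cells, and the nucleotide receptor gene P2ry2 (0.22) did not pass. Of 12 metabotropic serotonin receptor genes only Htr4 was tested (0.15, adjusted p = 0.47). In a list of 9 genes of the complex that silences neuronal genes, 8 were tested, 3 rose, 0 fell and 5 did not pass (median 0.08), beside 16.8% higher over all tested genes. Rest, its DNA-binding factor, rose by 0.61 ± 0.09 (adjusted p = 0.0206), Sin3a by 0.55 ± 0.09 and Rcor3 by 0.51 ± 0.11, while the demethylase gene Kdm1a was at -0.01.

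**Figure D5:**
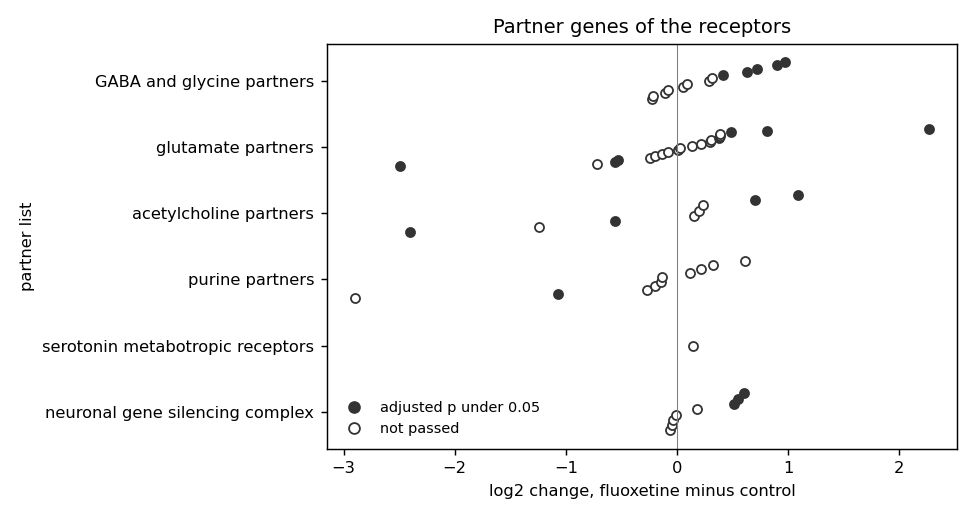
Log2 change, fluoxetine minus control (horizontal axis), of the tested genes of each partner list (vertical axis), filled at an adjusted p under 0.05. The called GABA and glycine partners all lie above 0, while called glutamate and acetylcholine partners lie on both sides. The points of Abat, Camk2b, Slc17a7, Chrm1 and Adora2a are fitted values of genes that were unmarked in one of the groups.

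As a check of the label, the mesenchymal markers Vim, Fn1 and S100a4 were well above background on all arrays, while Col3a1, Pdgfrb and Thy1 had no marked probe. The epithelial genes Krt8, Krt18 and Epcam were marked on all arrays as well. Epithelial markers summed to 65900 and 75400 units with fluoxetine, against 94500 and 92700 in control, above the mesenchymal sums on every array. All marker sums are of processed signals not scaled between arrays. The 75th percentile of the arrays was 356 and 419 units with fluoxetine, against 449 and 415 in control. No difference between the groups is therefore drawn from the sums. These markers do not settle the cell type. Of 12 neuron markers 6 were tested, and Syt1, Map2, Nefl and Stmn2 had no marked probe. Their summed signal was 1860 and 2390 units with fluoxetine, against 2930 and 2540 in control, with Snap25 lower (-1.87 ± 0.34) and Syp higher (0.54 ± 0.10). Of 9 skeletal muscle markers 3 were tested, summing to 134 and 135 units with fluoxetine, against 130 and 192 in control, and Myod1, Myog, Des and Ckm had no marked probe. Of the 3, Myh3 fell (-0.99 ± 0.21, adjusted p = 0.0401 in limma). Myh3 was unmarked on fluoxetine 2 and entered the test through the control arrays alone. Other cell types were also read. Leukocyte markers summed to 21700 and 22100 units with fluoxetine, against 11400 and 11500 in control, mostly through Cd68, a lysosomal protein (1.39 ± 0.12). Of 10 leukocyte markers 4 were tested, 2 rose (Cd68 and Cd3e) and 1 fell (Itgam). Cd3e changed by 0.52 ± 0.10 and Itgam by -1.96 ± 0.07, although for both 1 of the 2 kept probes moved the other way. Ptprc, the general leukocyte marker, was unmarked. Of 10 mesenchymal markers 7 were tested and 2 fell (Col1a1 and Col1a2), with sums of 32700 and 37600 units with fluoxetine, against 44500 and 36400 in control. Col1a2 was not marked with fluoxetine and entered the test through the control arrays alone. Over all tested genes 16.8% were called higher and 10.2% lower, and nothing is drawn from the count of a marker list. Among glia, epithelial and endothelial markers 4 of 7, 3 of 4 and 1 of 4 were tested and 0 passed in limma. The part of any of these markers in the receptor changes was not tested. The arrays had 49.7% to 51.6% of their probes marked, and Pearson's r across 25833 probes was 0.995 between the fluoxetine arrays and 0.993 between the control arrays. The 4 arrays lay on 1 slide with those of each group side by side, so that position and treatment cannot be told apart.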

How the data were processed

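RNA of 4 S-180 samples was measured on single-colour (Cy3) Agilent arrays. The deposited files hold the scanner's processed spot intensity (linear scale), for which the headers name the software Feature Extraction, version 12.1.0.3. The headers report fits of a spatial background and of a multiplicative trend within each array, and nothing in the files shows scaling across arrays. Marks for well above background, non-uniform and outlying spots are the software's, per the file headers. Later steps by the authors are not given in the sources used here.

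Values were log2 of the deposited processed intensity minus each array's 75th percentile over probes. Control spots and flagged spots were left out (47 probes), leaving 56558. Symbols came from RefSeq transcripts of GRCm38.p6, matched without versions. Array coordinates are not used here. A gene was its brightest probe among those marked on both arrays of a group, giving 13539 genes. Groups were compared with limma 3.58.1 in R 4.3.3 (lmFit, eBayes, group only), with Benjamini-Hochberg adjustment over all 13539, and called at an adjusted p under 0.05. Exact permutation of 2 against 2 arrays cannot go below 0.333. A gene dim on both arrays of a group has a bound, set against the higher of the lowest marked signal and its own signal on each array. Unmarked probes can read above the lowest marked signal, so no bound is a sharp limit. The fit was also run on simulated data with independent noise and few changed genes. Far more genes were called in these data, so that run does not vouch for the calls here. The members, lists and rule for named genes (every tested member, and in each partner list up to 4 called genes by size of change and up to 2 uncalled) were chosen with earlier results of these data known. Some dim members are not reported here by name. Further list, marker and neighbour genes were named after their values were seen. Alternatives were other background corrections, scalings, filters, probe rules, a variance trend, a replicate block and leaving out each array. The files hold no spot mean, so normexp (offset 50) used the spot median.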

Additional observations from a re-analysis of the deposited data

How the results depend on the processing

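For the 16 tested subunit genes, Grina and Grid2ip, 268 comparisons with alternative settings were made: 221 kept direction and side of the threshold, 29 lost the call, 8 gained it and 10 changed sign. No gene called with all arrays changed sign. The sign changes were in uncalled genes near 0: Chrnb4 at 0.0161 with normexp and 0.11 with quantile normalization (-0.24 to 0.18 with an array left out), Gabrb2 at -0.0337 with normexp, Grik5 at -0.0228 with quantile normalization and -0.0574 with scaling on probes marked on all arrays (-0.0131 to 0.014 with an array left out), and P2rx5 at 0.0684 with quantile normalization (-0.24 to 0.0311 with an array left out). With no filter on dim probes 0 of 23771 genes were called, 0 of 67 subunit genes among them, with 5273 and 13 at an unadjusted p under 0.05 in limma. The cause was not tested. Leaving out an array gave 0 to 2667 called genes and 0 to 6 called subunit genes. With every kept probe as its own feature 5532 of 19889 probes were called. With the replicate number as a block, 1836 genes were called and 5 of the subunit genes, Glra1 being lost (adjusted p = 0.0506). The deviations of same-numbered arrays correlated at -0.117 across genes, and a block with crossed numbers, added after seeing the data, called 2679 genes and 6 subunit genes, with Grin2d lost (adjusted p = 0.0577) and Chrne gained (adjusted p = 0.0404). Nothing in the labels pairs the arrays. Detection of subunit genes ran from 14 (marked on all 4 arrays) to 21 (on at least 1 array). Signal over background limits the dim members, for which absence cannot be read from these arrays.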
